A study of Schizosaccharomyces pombe with 22 samples.

Results

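The genes described here carry the fission yeast Schizosaccharomyces pombe through the step from G1 into S phase. There are 10 of them: cdc10, res1, res2, rep2, yox1, cdc18, cdt1, cdc22, cig2 and pof3. They were taken by probe name, as symbol or systematic identifier, from 5056 names on the coding-region (ORF) probes and 4941 on the intergenic (IGR) probes. yox1 was printed under its identifier SPBC21B10.13c. res2 was found only under mcs1, which RefSeq lists as an older symbol of it. cig2 was not on the array print used for wild-type replicates 6 to 8.

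The study concerned Pst3, a homolog of the deacetylase scaffold Sin3. Of its 22 samples, 2 expression arrays carried RNA from a strain (pst3nmt Hu1505) whose pst3 gene is driven by an nmt promoter, which thiamine shuts off, in the OFF state. Another 8 held wild-type RNA, of a strain that the labels do not name. Chromatin arrays held DNA bound by Pst3-GFP (Pst3 tagged with green fluorescent protein) against wild-type input on 2 IGR arrays, and 4 further samples, on IGR and ORF probes, came from another Pst3-GFP experiment, whose titles name an IP and beads and whose source labels name input and beads. The last 6 samples came from histone H3 immunoprecipitation, labelled with an input channel, in wild type and in strains called hst2D and hst4D, with 1 sample for each strain on IGR and on ORF probes. The labels do not state whether replicate arrays stem from separate cultures, and codes in wild-type titles recur in pairs. The p-values therefore reflect spread among the arrays at hand, which may be technical. The sources used here do not give the promoter variant, medium or time of repression.

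The transcription factor MBF binds the MluI cell cycle box in front of genes needed for DNA replication. In fission yeast it consists of Cdc10 with the DNA-binding subunits Res1 and Res2, is helped by the coactivator Rep2 and is held down by the corepressor Yox1. Its targets include the origin-licensing proteins Cdc18 and Cdt1, which load the replicative helicase, the large subunit of ribonucleotide reductase Cdc22, which makes deoxynucleotides, and the S phase cyclin Cig2. Pof3 is an F-box protein, a substrate adaptor of the SCF ubiquitin ligase, and is known for its part in genome stability.

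The core of the box was found before the 4 targets and the corepressor gene, and the full box before some of them. In RefSeq's ASM294v3 assembly, ACGCGT and its core ACGCG were searched on both strands in the 300 bases before each annotated gene start. A core was counted at each base where ACGCG or its complement began, so each ACGCGT, a palindrome, gave 2 cores. Of the 10 members 5 held a core, namely yox1 and the 4 targets, against 10.6% of 5113 protein-coding genes. cdc22 held 7 cores, cdc18 held 6, cig2 held 5, cdt1 held 4 and yox1 held 3. ACGCGT itself was present in yox1, cdt1 and cdc22, against 2.89% of all genes. The 300 bases before cdc10, res1, res2, rep2 and pof3 held no such letters. In 1000 bases before the start of the coding region, cdc10 held 3 cores, and res1, res2, rep2, pof3 and also cig2 held none, against 28.1% of all genes with at least 1 there. The stretches around the cores in the last 200 bases are shown because they set these 5 members apart from the others. They are written 5′ to 3′ on the gene's strand, with the cores in capitals and at least 12 bases on each side. They lie before the annotated start, so that they hold no annotated leader.
yox1, chrII:1648136-1648193, plus strand: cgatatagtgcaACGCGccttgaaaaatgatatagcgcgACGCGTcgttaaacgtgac
cdc18, chrII:2218010-2218128, minus strand: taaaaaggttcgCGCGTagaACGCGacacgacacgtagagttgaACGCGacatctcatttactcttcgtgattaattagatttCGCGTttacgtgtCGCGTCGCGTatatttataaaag
cdt1, chrII:477298-477344, plus strand: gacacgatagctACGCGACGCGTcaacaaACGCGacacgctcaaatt
cdc22, chrI:4226865-4226936, plus strand: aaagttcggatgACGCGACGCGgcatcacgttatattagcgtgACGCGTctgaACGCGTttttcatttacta
cig2, chrI:2709603-2709748, plus strand: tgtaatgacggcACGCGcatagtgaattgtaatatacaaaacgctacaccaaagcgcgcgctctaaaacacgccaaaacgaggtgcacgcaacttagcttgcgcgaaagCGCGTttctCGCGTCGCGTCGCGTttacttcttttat

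In cdc18 the cores began between 132 and 43 bases before the gene, and in cdt1 between 82 and 65 bases. In cig2 a group of 4 lay between 70 and 51 bases before an annotated start that itself precedes the coding region by 1298 bases. The window of every one of these genes but cdt1 overlapped an annotated non-coding RNA. Among 12 other MBF targets 10 held a core and 6 held ACGCGT. mik1, a kinase that holds back mitosis, and suc22, the small ribonucleotide reductase subunit, held neither.

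**Figure D1:**
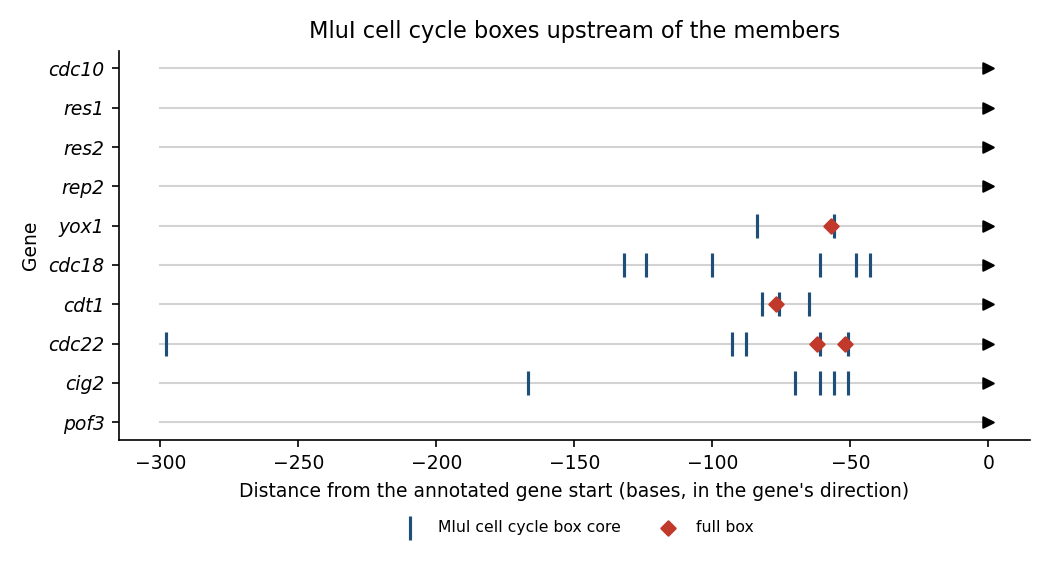
Positions of MluI cell cycle box cores (bars) and full boxes (diamonds) in the 300 bases before the annotated start (arrowhead, 0) of each member, in the direction of the gene. Only yox1, cdc18, cdt1, cdc22 and cig2 hold any.

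Facts of the arrays bear on all expression results. The pst3 probe, which checks the label, read 10.16 and 10.04 (log2 intensity) on the arrays labelled pst3 repressed, against 9.75 to 10.96 in wild type. Its difference was -0.10 (SE 0.40, limma adjusted p = 0.914), so the repression that the label names was not seen at this probe, whose print position had a rank correlation of 0.48 with wild type, and the group is called "labelled pst3 repressed". These 2 arrays carried 1 deposited channel each, of opposite dye, and lay on a print of their own, so strain and print cannot be told apart. Median net signals per file were 1546 to 3718 on the arrays labelled pst3 repressed and 329.8 to 4298 on wild-type arrays. At 10 positions of the print that the pst3-labelled arrays used, probe names matched wild-type signal ranks poorly (rank correlations of 0.077 to 0.478, median 0.269, against a median of 0.68 elsewhere). Names there were left out, and no member lies among them.

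Relative to wild type, 2 of the 9 members on all arrays passed the test, and both fell: res1 and pof3. cig2, compared with wild-type replicates 1 to 5 only, fell as well. The MBF subunits cdc10 and res2, the coactivator rep2 and the targets cdc18, cdt1 and cdc22 did not pass. Across all 4417 genes tested, limma with Benjamini-Hochberg adjustment at 0.05 called 8.85%, with 4.53% lower and 4.32% higher on the arrays labelled pst3 repressed. The median difference was -0.41 over the 9 members, of which 6 lay below 0, and -0.04 over all genes (quartiles -0.68 and 0.63). In bulk RNA, fewer cells in the phase when a gene is used and less RNA per cell cannot be told apart.

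res1, on chromosome II from base 1232586 to 1235587 on the plus strand, encodes the MBF subunit that acts mainly in the mitotic cycle. Its level was 8.70 and 9.07 on the arrays labelled pst3 repressed, against 10.32, 11.26 and 11.81 as the lowest, median and highest of 8 wild-type arrays. Both arrays lay below every wild-type array. The means were 8.88 ± 0.26 (SD, n = 2) and 11.21 ± 0.53 (SD, n = 8), a difference of -2.33 on the log2 scale (SE 0.45, limma adjusted p = 0.00711). On replicate 1 labelled pst3 repressed, 1 of its 2 spots had a net signal of 272, under the limit set by empty spots in that file (their 95th percentile, 908). The other, at 880, was above its limit of 820. The 31 names at the print position of res1 had a rank correlation of 0.402 with wild type, within the range of the positions left out. Whether a name there is wrong was not tested.

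The partner subunits differed less. res2 encodes the subunit that acts mainly in meiosis and also takes part in the mitotic cycle. It read 10.10 and 10.61 on the arrays labelled pst3 repressed, against 7.61, 10.22 and 11.64 in wild type. The arrays labelled pst3 repressed lay inside the wild-type range, and the difference of 0.28 (SE 0.76, limma adjusted p = 0.873) was smaller than its error. cdc10, the subunit shared by all forms of the factor, read 9.85 and 9.93 on the arrays labelled pst3 repressed, against 8.23, 10.59 and 11.75 in wild type. It differed by -0.41 (SE 0.77, limma adjusted p = 0.800), again inside the wild-type range. The lowest wild-type values of both genes, on replicate 3 for res2 and replicate 1 for cdc10, came only from spots that the submitters had flagged.

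Of the regulators, rep2 read 10.57 and 10.45 on the arrays labelled pst3 repressed, against 9.49, 10.04 and 11.00 in wild type. Its difference was 0.44 (SE 0.43, limma adjusted p = 0.574), and 7 of the 8 wild-type arrays lay below both values. The corepressor gene yox1 read 8.79 and 8.22 on the arrays labelled pst3 repressed, against 8.81, 9.60 and 10.25 in wild type. The higher of its values labelled pst3 repressed was just under the lowest wild-type one. The difference of -1.02 (SE 0.44) did not pass (limma adjusted p = 0.175). On replicate 1 labelled pst3 repressed, neither yox1 spot exceeded the empty-spot limit. With res1 and pof3, yox1 made 3 of 9 members with both arrays labelled pst3 repressed below all 8 wild-type arrays, which held for 10.5% of all genes. No member lay above all wild-type arrays, against 12.4% of all genes, and 22.8% lay outside on either side.

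The targets split. cig2 could be measured on 7 arrays, and its levels were normalised on these alone, so they do not compare directly with those of other members. It read 8.27 and 7.35 on the arrays labelled pst3 repressed, against 9.68, 10.23, 10.71, 10.22 and 10.33 on wild-type replicates 1 to 5, with no overlap. Means were 7.81 ± 0.65 (SD, n = 2) with the label pst3 repressed and 10.23 ± 0.37 (SD, n = 5) in wild type. The difference was -2.42 (SE 0.42, limma adjusted p = 0.00771). On replicate 1 labelled pst3 repressed its net signals of 456 and 811 did not exceed the empty-spot limits of 908 and 820. On replicate 2 they were 515 and 1152, beside Escherichia coli control medians of 624 and 642. With only spots that the submitters flagged 0, it was -0.84 (limma adjusted p = 0.0473, 1571 genes tested).

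cdc18 was the steadiest member. It read 10.05 and 10.02 on the arrays labelled pst3 repressed, against 9.63, 10.18 and 10.41 in wild type. All values lay within 1 unit of log2, and the wild-type SD of 0.28 (n = 8) was the smallest of the 10 members. The difference was -0.04 (SE 0.36, limma adjusted p = 0.965). cdt1 read 8.03 and 8.16 on the arrays labelled pst3 repressed, against 7.85, 8.84 and 9.93 in wild type. It differed by -0.72 (SE 0.54, limma adjusted p = 0.460), and its spots were dim, with 18 of 29 wild-type spot values and 2 of 4 values labelled pst3 repressed above the empty-spot limit. cdc22 read 11.48 and 11.54 on the arrays labelled pst3 repressed, against 8.02, 11.55 and 12.32 in wild type. Its difference was 0.37 (SE 0.85, limma adjusted p = 0.845). The lowest wild-type value, on replicate 3, came from spots that the submitters had flagged, and without that array the difference was -0.08. The print position of cdc22 had a rank correlation of 0.411 with wild type, also within the range of the positions left out.

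pof3, on chromosome III from base 1345278 to 1347275 on the minus strand, read 8.04 and 8.88 on the arrays labelled pst3 repressed. Its wild-type values were 9.86, 10.21 and 11.46 as the lowest, median and highest. The groups did not overlap. The means were 8.46 ± 0.60 (SD, n = 2) with the label pst3 repressed and 10.39 ± 0.56 (SD, n = 8) in wild type. The difference was -1.93 (SE 0.47, limma adjusted p = 0.0230). It did not pass with the print as a random block (adjusted p = 0.0575 by limma) or with median centring (-1.57, limma adjusted p = 0.0601). On replicate 1 labelled pst3 repressed the net signals of pof3, 284 and 267, were below the empty-spot limits and the Escherichia coli medians of 472.5 and 519.8. On replicate 2 they were 1465 and 1826, above both.

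**Figure D2:**
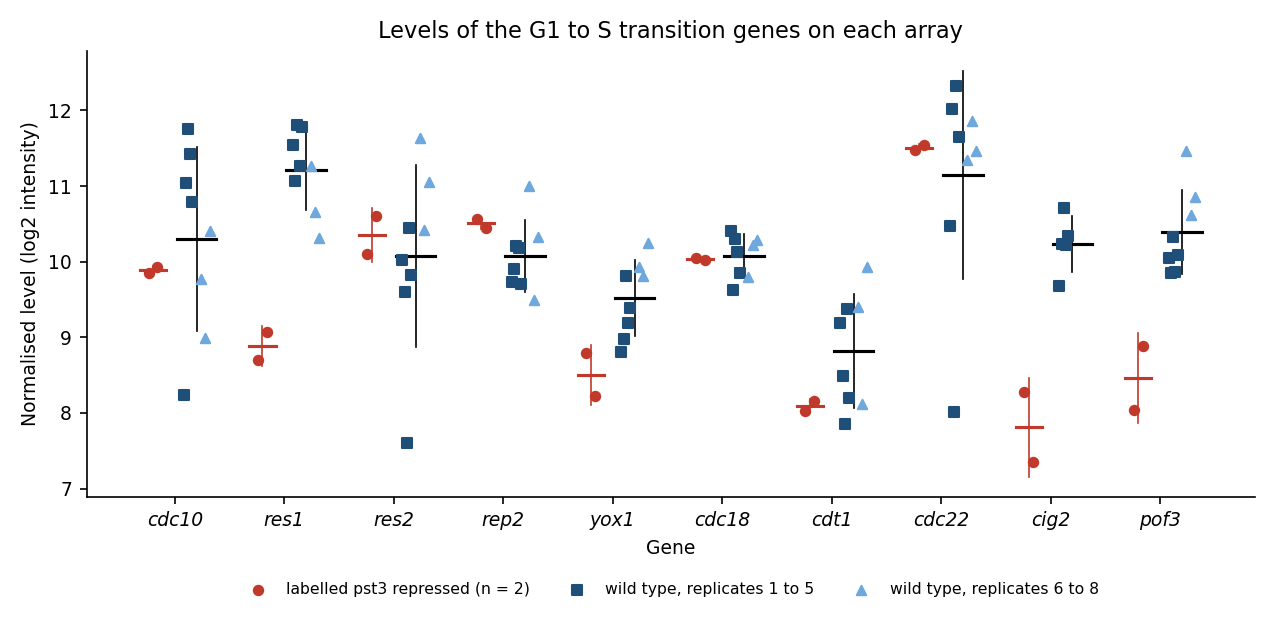
Normalised log2 level of each member on each array, labelled pst3 repressed (circles, left) and wild type (squares and triangles, right), with the mean (bar) and SD (line) of each group. Values of cig2 come from the 7 arrays that carry it. The circles of res1, yox1, cig2 and pof3 lie below all wild-type points of the same gene.

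With 1 array labelled pst3 repressed, limma takes the spread from the wild-type arrays alone, and the lone array is assumed to vary like them. Without replicate 1 labelled pst3 repressed, res1 differed by -2.17 (limma adjusted p = 0.128) and pof3 by -1.53 (limma adjusted p = 0.306), and no member passed. Without replicate 2 the differences were -2.52 (limma adjusted p = 0.0747) and -2.36 (limma adjusted p = 0.0923), and again no member passed. Over all genes, 43 and 66 passed in these fits, against 391 with both arrays, while the differences of res1 kept about their size.

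The wild-type arrays lay on 2 prints, and each was compared with the same 2 arrays labelled pst3 repressed, which lay on neither. Strain and print therefore cannot be told apart in either comparison. Against replicates 1 to 5 alone, 3 of 10 members passed, all lower, where 16.1% of all genes passed, 7.32% higher and 8.76% lower. These were res1 (-2.97, SE 0.39), cig2 and pof3 (-1.82, SE 0.40). Against replicates 6 to 8 alone, 2 of 9 passed, both lower, where 17.4% of all genes passed, 8.69% higher and 8.72% lower. These were pof3 (-1.95, SE 0.41) and res1 (-1.45, SE 0.41). res2 lay on either side of 0, with 0.98 against replicates 1 to 5 and -0.56 against replicates 6 to 8, and passed in neither. cdc18 differed by -0.03 and -0.06.

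**Figure D3:**
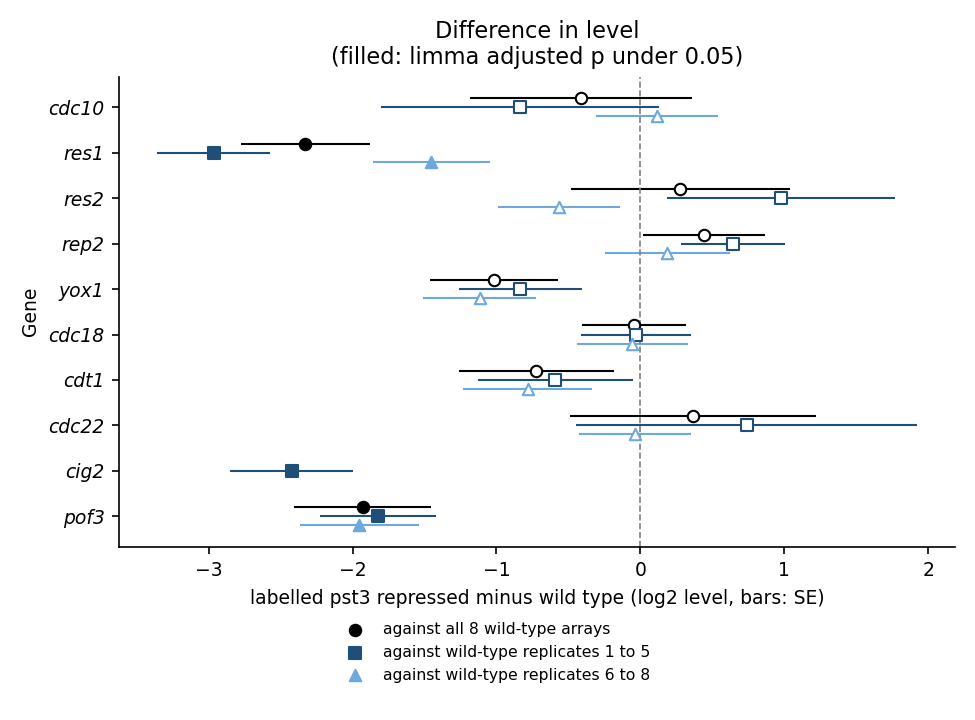
Difference in log2 level, labelled pst3 repressed minus wild type, with its SE, against all 8 wild-type arrays (circles) and against replicates 1 to 5 (squares) or 6 to 8 (triangles) alone. Filled symbols passed limma's adjusted threshold of 0.05. res1 and pof3 are filled in every comparison and cig2 in the 1 it could enter.

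Between the wild-type prints themselves, replicates 6 to 8 against 1 to 5, no member passed limma's test out of 9, while 11.7% of 4559 genes did, 4.98% higher and 6.76% lower on replicates 6 to 8. 3 members (pof3, res2 and yox1) had unadjusted p-values under 0.05, where 1281 of the 4559 genes did. The largest differences were 1.57 for res2 (SE 0.61, limma adjusted p = 0.120) and 0.95 for pof3 (SE 0.32, limma adjusted p = 0.0788), both higher on replicates 6 to 8. res1 differed by -0.75 (SE 0.34, limma adjusted p = 0.186). Spread within wild type was widest for cdc22 (SD 1.38), cdc10 (SD 1.22) and res2 (SD 1.20, n = 8 each).

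Pathway lists, chosen with results of these data known, gave counts to be read against the 8.85% of all genes called. None of 10 measured other MBF targets passed limma's test (median difference 0.09, range -1.54 to 0.66), nor did any of 11 origin-licensing genes (median 0.08). Against wild-type replicates 6 to 8 alone, where 17.4% of all genes passed, 2 of the 10 targets were lower. These were mik1 (-1.86, limma adjusted p = 0.0167) and ctp1 (-1.46, limma adjusted p = 0.0202), and the median was 0.43. Of the licensing genes, orc1 was higher against these replicates (1.62) and orc5 lower against replicates 1 to 5 (-1.86). Of 30 replication fork genes 1 was higher and 1 lower, with a median of -0.18. The gene of the GINS subunit psf1, part of the replicative helicase, rose by 2.13 (SE 0.56, limma adjusted p = 0.0321). That of pol12, the B subunit of DNA polymerase alpha, fell by 2.16 (SE 0.50, limma adjusted p = 0.0177). Among 15 G1 and S regulators 1 passed against all 8 wild-type arrays, pas1. Against replicates 1 to 5, 1 was higher and 1 lower (rum1, -2.32). Against replicates 6 to 8, 2 were higher and 2 lower (suc1, -1.97, and mik1). Pas1, a cyclin that activates MBF-dependent transcription in fission yeast, rose by 1.65 (SE 0.44, limma adjusted p = 0.0333). psf1 was lower on wild-type replicates 6 to 8 than on 1 to 5 by a called difference of -1.38 (limma adjusted p = 0.0249).

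Of 18 measured SCF and CRL4 ubiquitin ligase genes, the group to which pof3 belongs by function, 2 were called, both higher, and the list's median was 0.49, where 4.32% of all genes were higher. Against replicates 1 to 5 the list had 2 higher and 1 lower, and against replicates 6 to 8 it had 3 higher and 2 lower, with a median of 0.05. pof1, an F-box protein that targets the transcription factor Zip1, rose by 1.88 (SE 0.40, limma adjusted p = 0.0117). pof5 rose by 2.27 (SE 0.65, limma adjusted p = 0.0450). Both kept an adjusted p under 0.05 against either wild-type print alone.

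Genes with the box gave medians near 0. Among 120 tested genes with ACGCGT in the 300-base window, 6 were called higher and 3 lower, with a median difference of 0.09 (quartiles -0.80 and 0.74). Among 47 genes with 3 or more cores, 1 was higher and 3 lower (median -0.07). Among 3767 genes with no core, 152 were higher and 168 lower (median -0.05).

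The genes whose levels followed a member most closely were found by Pearson's correlation over the 10 arrays, which share prints and labels. For pof3 they were rei1 (r = 0.981) and trs130 (r = 0.969). For cdc18 they were the probes named pi015 (r = 0.895) and b8647-4 (r = 0.881), for which the reference annotation gives no gene.

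Pst3-GFP was then read at the IGR probes named for the members. Which side of its gene such a probe lies on is not given in the files. Values are log2 of the signal over the authors' reference intensity for the region, centred on each array's median. The cdc22 probe stood highest, followed by those of cdt1, pof3, cdc18 and cdc10, and the res2 probe stood lowest. No member passed limma's test (0 of 10), while 1.72% of 4941 regions did. The SE was 0.84 for every region named here, a value that limma pooled over regions. These p-values therefore follow a region's mean and not the spread of its own arrays. At an unadjusted limma threshold of 0.05, 467 regions passed, and cdc22 was the only member among them.

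The cdc22 probe read 3.00 on array 1 and 1.45 on array 2, a mean of 2.22 (SE 0.84, limma adjusted p = 0.219) that exceeded 98.1% of all regions. Both values were high for their array. It did pass after normexp background correction (2.41, limma adjusted p = 4.9e-05) and after normexp with loess (2.63, limma adjusted p = 5.18e-05). Its signal alone lay at percentiles 94.4 and 94.0 of the arrays, while its reference lay at percentile 28.

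The cdt1 probe read 1.58 and 1.31, with a mean of 1.44 above 94.3% of regions. On array 2 its first spot had a signal of 1843 under a background of 1909, and with plain background subtraction the mean was -0.49. The pof3 probe read 2.08 and 0.70, with a mean of 1.39 above 93.6%. The cdc18 probe read 0.63 and 1.5, with a mean of 1.07 above 88.9%, and passed with normexp alone (1.40, limma adjusted p = 0.0378). The signal of the cdc18 probe lay at percentiles 28.4 and 41.4 of the arrays, and its ratio came with a reference at percentile 8.3. The references of cdt1 and pof3 lay at percentiles 12.8 and 20.1, with signals at percentiles 56.4 and 57.5 for cdt1 and 77.3 and 34.6 for pof3. How far the low references set these ratios was not tested.

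For the factor's own genes, the cdc10 probe read 1.30 and 0.64 and the res1 probe 0.58 and 0.54. The res2 probe read -2.57 and -0.03, far apart between the arrays. The regulators' probes read -1.07 and -0.56 for rep2, and -0.38 and 0.14 for yox1. The cig2 probe read -0.27 and 0.01, near the median of all regions. With plain background subtraction the means were -2.44 for cig2, -1.75 for yox1 and -2.80 for rep2, and none passed.

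In all, 6 of 10 member probes were above 0 on both arrays, where 27.4% of all regions were. These 6 were the members with the lowest references, from percentile 8.3 (cdc18) to 32.3 (res1), with cdc10 at 24.7. References of the rest lay at percentiles 36.0 (yox1) to 70.4 (rep2). How far the references set this count was not tested. The median over the members was 0.76, and that over all regions was -0.05 (quartiles -0.67 and 0.52). The 2 arrays agreed little, with a Pearson correlation of 0.206 across regions, which are not independent replicates and share the reference, while spot sets of 1 array correlated at 0.958 and 0.985. Array 2 had a median signal of 1654 over a median background of 1183, against 815.5 over 14.0 on array 1. The cig2 probe on array 2 had a signal of 1536 and a background of 1797.

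**Figure D4:**
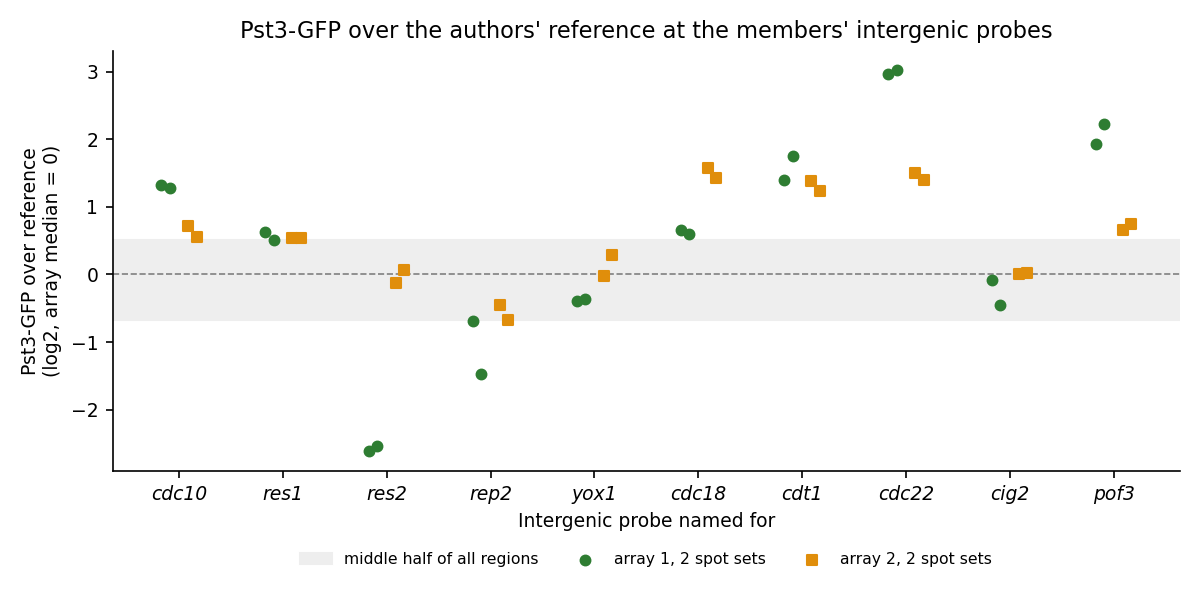
Pst3-GFP signal over the reference (log2, array median at 0) at the intergenic probe named for each member, for both spot sets of array 1 (circles) and array 2 (squares). The grey band holds the middle 50% of all regions by their mean over both arrays, while the points are single spot sets. The points of cdc22, cdt1, pof3, cdc18 and cdc10 lie above the band on both arrays, as do those of res1 by a little. The res2 points fall far below it on array 1 only.

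Of 21 regions named for SCF and CRL4 genes 1 was called, where 1.72% of all regions were. The probe of rbx1, the RING subunit of these ligases, printed under the older symbol pip1, read 4.08 (SE 0.84, limma adjusted p = 0.000594). None of 12 regions named for other MBF targets passed (median -0.02). The 133 regions of genes with ACGCGT had a median of 0.16 (quartiles -0.60 and 0.71) and 1 call, and the 4062 regions of genes with no core had a median of -0.02.

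For the other Pst3-GFP experiment the titles name an IP and beads, while the source labels name input and beads. Its samples carry the numbers 3 and 5 after 1 slide number, and the spot flags of both were the same for 100% of 4940 IGR names and 4876 ORF names, so they were read as 2 channels of 1 slide. Which material each channel held (IP, input or beads) is therefore not settled, and no test was made. Signals were near background, with medians of 151 over 121 for channel 3 and 1028 over 1066 for channel 5 on the first IGR spot set. Values below are log2 signals centred on the median.

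Probes of 3 members, yox1, pof3 and cdt1, lay more than 2 units of log2 from the median of a channel. The share of all probes past this cut was not counted. The yox1 IGR probe read 4.15 and 4.23 on the 2 spot sets of channel 5 and 0.29 on channel 3, which had 1 spot set. The channel 5 signals, 18241 and 19189, were each above at least 99.7% of probes. The coding probe of pof3 read 4.32 and 4.40 on channel 3 and -0.84 and -0.87 on channel 5, so that its centred difference of 5.20 exceeded 97.6% of coding probes. Its channel 3 signals lay at percentiles 93.8 and 94.2 of coding probes. The coding probe of cdt1 was high in both channels, at 4.97 and 4.96 on channel 3 and 2.74 and 2.62 on channel 5. These lay at percentiles 96.3 and 96.2 of coding probes on channel 3, and 97.7 and 97.3 on channel 5. The IGR probes of cdc22 (0.32 on channel 3, mean 0.46 on channel 5) and cdt1 (-0.19 and -0.14), high over the reference in the experiment above, lay within 1 unit of the median here.

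The H3 files need a caution before their values. In wild type the 2 spot sets correlated at 0.801 on IGR and 0.796 on ORF probes (Spearman, signals over probes). The 2 files of hst2D correlated at 0.176 (IGR) and 0.295 (ORF), and those of hst4D at 0.193 and 0.300. A file of hst2D instead correlated at 0.428 (IGR) and 0.534 (ORF) with a file of hst4D. The titles of these 4 samples name an input and H3 beads, so that 1 file of each may hold input DNA. Whether the files are channels or were exchanged was not tested. The labels of the bead channel name wild type in 3 of the 4 samples. No values of hst2D or hst4D are therefore given for the members, and no test was made.

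In wild type, H3 over the authors' reference was highest on IGR probes at cdc18 (0.94 and 1.45), cdc10 (0.87 and 1.17) and cdt1 (0.82 and 1.04), and lowest at rep2 (-0.76 and -0.49). With normexp the mean of the cdc10 probe was 0.41, against 1.02 with signals as given, and lay below those of cdc18 (1.22), cdt1 (0.75), pof3 (0.69), cig2 (0.66), res1 (0.61) and cdc22 (0.61). The cdc22 probe, highest for Pst3-GFP, read 0.30 on both spot sets. The members' IGR probes had the same reference intensities here as for Pst3-GFP (435 for cdc22). The ratios of both experiments therefore share a denominator and are not separate measurements. The median over the 10 members was 0.39, within the quartiles of all regions (-0.72 and 0.70).

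On coding probes cig2 stood highest, at 1.87 and 2.09, and cdc10 lowest, at -1.41 and -1.37. With normexp the coding probe of cdc10 averaged -1.34 and that of cig2 1.40. cdc18, cig2, cdc22 and res1 were above 0 on both spot sets of both probe sets, and the coding probe of cdc18 read 0.75 and 1.38. Values were centred on the median of each spot set, and the share of all genes above 0 throughout was not counted. Some high ratios came with a low reference. The reference of the cig2 coding probe lay at percentile 4.12 and its H3 signal at percentile 69.0. Those of the cdc18 IGR probe lay at percentiles 8.35 and 20.1. The low ratio of the cdc10 coding probe came with a reference at percentile 88.0 and a signal at percentile 33.3. How much of each ratio the reference set was not tested.

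**Figure D5:**
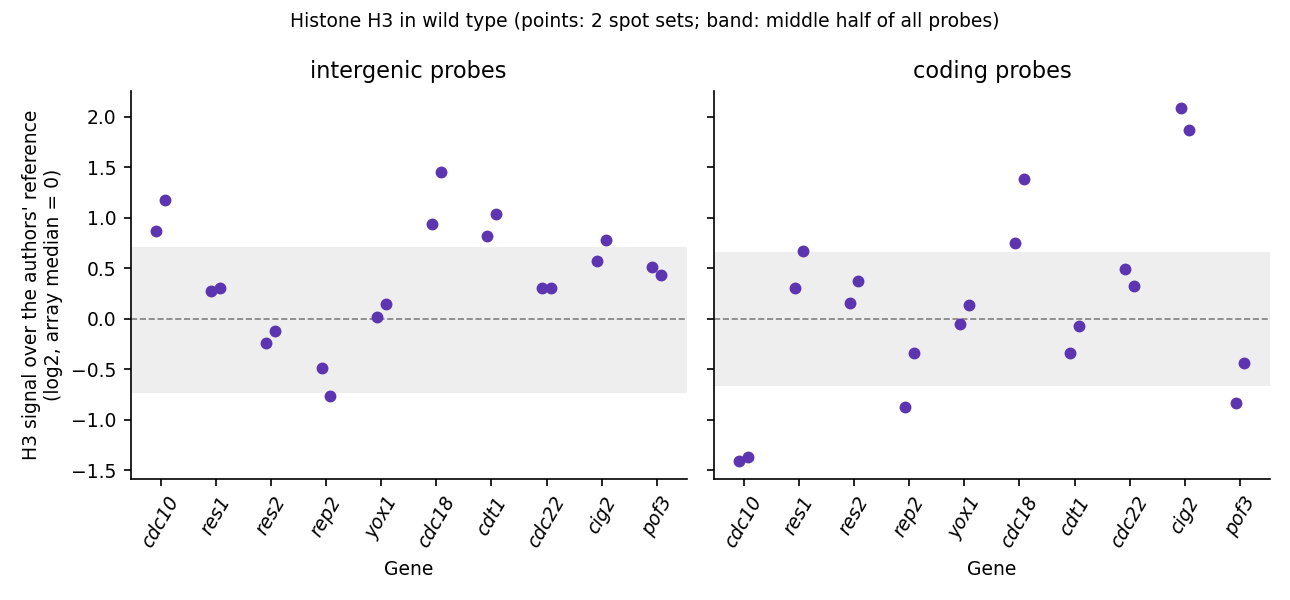
H3 signal over the authors' reference in wild type (log2, array median at 0) at the intergenic and the coding probe of each member, with 1 point per spot set. Grey bands hold the middle 50% of all probes by their mean over the spot sets. cdc10 lies above the band on its intergenic probe and below it on its coding probe, and cig2 is highest on its coding probe.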

How the data were processed

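Spotted arrays of RNA or immunoprecipitated DNA were read from scanner files. Per the file headers, the authors deposited a median signal intensity and a background intensity per spot, and for chromatin arrays a reference intensity per region. Per the labels, published protocols were followed. No scanner, software or meaning of spot flags is stated in the sources at hand. Deposited log2 value tables (22 columns) name no probes and were left aside. The members and the gene lists were chosen with earlier results of these data known. Named genes were the members, pst3, list genes past the adjusted threshold (at most 6 per list and fit) and the 2 genes most like pof3 and cdc18.

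Of 5056 coding probe names 4778 matched RefSeq (ASM294v3), and of 4941 intergenic names 4559. Expression signals were background-corrected by normexp with an offset of 50 (signal plus 50 where at least 90% of backgrounds were 0), log2 transformed, stripped of control spots, quantile normalised over genes on all files and averaged per array. After the data were seen, 301 names at 10 print positions were left out. The arrays labelled pst3 repressed were compared with wild type by lmFit and eBayes of limma 3.58.1 in R 4.3.3, with Benjamini-Hochberg adjustment over all genes at 0.05. Pst3-GFP signals as given were divided by the reference, centred and tested against 0 by limma. Beads and H3 values were not tested. A spot counted as above empty spots where its net signal exceeded their 95th percentile in the same file. The fits were tested on simulated data in which 200 features were changed. Alternatives covered background, normalisation, dim probes, spot sets, prints, the random block, single arrays and, added after seeing the data, flags and title codes. The number of arrays limits the precision. Python 3.11.15 was used for tables and figures.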

Additional observations from a re-analysis of the deposited data

Results flagged for a closer look

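The level of cdc22 on wild-type replicate 3 was 8.02, which lay 2.45 below the nearest of the other 7 wild-type arrays, a gap of 0.57 of the whole range. It was the only such value among the wild-type levels of the 10 members and pst3. Chance gives such a gap in about 5% of groups, and 11 groups were looked at. All 4 spot values of cdc22 on that array carried a flag of the submitters, whose meaning is not given. Without that array the difference of cdc22 between the arrays labelled pst3 repressed and wild type was -0.08, and with it 0.37, and neither passed limma's test.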

How the results depend on the processing

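No paired analysis was possible because the replicate numbers of the arrays were given in accession order and pair nothing. Genes called between the arrays labelled pst3 repressed and wild type numbered 391. They numbered 222 with median centring, 738 against wild-type replicates 1 to 5, 769 against replicates 6 to 8, 152 with the print as a random block, 203 with spots flagged 0 and 886 with wild-type arrays of 1 title code averaged, and between 43 and 531 without 1 array. The last 2 settings before the single arrays were chosen after seeing the data. Of 9 members, 2 were called, 1 with median centring and with the block, 1 of the 1 member (res1) that could be tested with spots flagged 0, and between 0 and 2 without 1 array. Without replicate 2 labelled pst3 repressed cig2 differed by -1.99 (limma adjusted p = 0.0725), with the lone array assumed to vary like wild type. Between the wild-type prints 535 genes were called, 264 with median centring and between 181 and 763 without 1 array, with 0 to 1 members. For Pst3-GFP, 85 regions were called, 709 with normexp, 0 after plain subtraction, 320 with normexp and loess, 48 without the dimmest 25%, and 10 and 0 from the first and second spot set alone. Members called numbered 0, 2 with normexp (cdc22 and cdc18) and 1 with normexp and loess (cdc22). The member median of wild-type H3 ratios, over IGR and ORF probes together, was 0.30, and 0.53 with normexp. The causes were not tested. With 2 arrays labelled pst3 repressed, print and strain cannot be told apart, and signals near empty spots limit res1, yox1, cdt1, cig2 and pof3.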
